A study of Homo sapiens with 2 samples.

Results

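The 48 genes described here are ubiquitin-conjugating enzymes and ubiquitin-specific proteases: 11 genes whose current symbol starts with UBE2 and 37 whose symbol starts with USP and a number. They were chosen by symbol, among 11057 named genes with a value on at least 1 of 2 dual-colour microarrays, and all 48 had a value on both. The arrays compared 293T cells, an established human embryonic kidney line, left untreated (agent none, time 0 h, labelled with Cy5) with 293T cells given 10 µM Y27632, a small-molecule kinase inhibitor, for 3 h or 6 h (labelled with Cy3). Each time had 1 array, so no value below has a replicate and no p-value is given. There was no dye swap, and treated cells carried Cy3 on both arrays, so dye and treatment cannot be told apart in any ratio. No separate control for the vehicle or the time in culture was part of the comparison, so these cannot be told apart from the inhibitor.

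Ubiquitin is a small protein that is joined to other proteins in a relay. An activating enzyme (E1) charges it and a conjugating enzyme (E2, most of them from UBE2 genes) carries it. A ligase (E3) then brings the charged E2 to the substrate, and the type of chain built decides whether the substrate is degraded by the proteasome or takes part in signalling, DNA repair or membrane traffic. The USP enzymes are the largest family of cysteine proteases that remove ubiquitin again, and single members act on histones, on repair proteins, on receptors at endosomes or on free chains.

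The symbol rule takes in genes outside this function. UBE2V2 has the fold of an E2 without its catalytic cysteine and works as the partner of UBE2N. USP39 is a splicing protein without protease activity, and USP6NL is an activator of RAB GTPases and no protease. Another 4 UBE2 or USP genes had a named probe and no value on either array. RefSeq holds 35 protein-coding genes of the UBE2 stem by the same rule and 77 of the USP stem, 25 of them in the USP17L group, and those without a named probe were not analysed here.

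The values are log ratios of the channels, read as log2, with a median of 0 over all probes of each array. Which channel is the numerator is unstated. Treated cells hold more RNA of a gene with a positive value if treated cells are the numerator, and less if control cells are. Signs were therefore left as deposited, and nothing is called a rise or a fall. The named genes had a median of 0.02 and an SD across genes of 0.36 on each array. The brightness of single spots is unknown, and having 1 array per time limits how precise any value can be. The only error available for a gene is the SD between probes of the same gene, taken over the 572 genes with several probes. It was 0.31 on the 3 h array and 0.33 on the 6 h array, which leaves out the spread between cultures. Of the members, 43 had 1 probe and 5 had 2 or more. In RNA from a whole culture, a change in some cells and a smaller change in all cells cannot be told apart.

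Promoter sequences are shown for USP1, USP25 and USP2, which have the highest, the second highest and the lowest value among USP genes on both arrays. Each run is the 250 bases before the annotated start in RefSeq, assembly GRCh38.p14, written 5′ to 3′ on the gene's strand, and capitals mark a CCAAT box on either strand (the letters bound by NF-Y). The windows are chr1:62436145-62436394 on the plus strand for USP1, chr21:15729732-15729981 on the plus strand for USP25, and chr11:119364209-119364458 on the minus strand for USP2.
USP1: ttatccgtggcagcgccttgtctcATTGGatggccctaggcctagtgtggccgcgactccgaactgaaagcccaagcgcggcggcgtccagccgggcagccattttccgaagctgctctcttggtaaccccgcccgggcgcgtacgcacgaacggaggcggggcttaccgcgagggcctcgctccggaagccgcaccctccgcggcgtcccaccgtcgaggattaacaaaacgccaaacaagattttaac
USP25: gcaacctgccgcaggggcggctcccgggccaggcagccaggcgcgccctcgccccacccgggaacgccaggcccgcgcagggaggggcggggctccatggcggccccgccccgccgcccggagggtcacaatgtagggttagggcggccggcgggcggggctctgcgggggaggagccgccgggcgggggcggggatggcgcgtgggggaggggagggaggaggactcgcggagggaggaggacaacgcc
USP2: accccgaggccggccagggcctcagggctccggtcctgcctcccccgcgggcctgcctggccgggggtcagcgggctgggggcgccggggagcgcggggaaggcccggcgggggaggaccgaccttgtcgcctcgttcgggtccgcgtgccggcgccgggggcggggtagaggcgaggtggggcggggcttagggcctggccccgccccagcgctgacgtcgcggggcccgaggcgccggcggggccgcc
The only capitals are in the USP1 window, where the box lies 226 to 222 bases before the start.

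The farthest from 0 among the members were USP1 on the positive side and USP2 on the negative side. USP1, which removes ubiquitin from FANCD2 and PCNA in DNA repair (probe H200004286), had log2 ratios of 0.91 at 3 h and 0.92 at 6 h, sizes of 1.88-fold and 1.89-fold. USP2, known for acting on MDM2 and cyclin D1 (probe H200012590), had −0.82 at 3 h and −0.77 at 6 h, sizes of 1.77-fold and 1.71-fold. These values put USP1 at the 99.0th percentile of named genes on each array. USP2 lay at the 1.92th percentile at 3 h and the 2.03th at 6 h.

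A further pair of members lay at least 1.5-fold (0.585 in log2) from 0. UBE2V2, the inactive E2 variant that with UBE2N builds chains used in DNA repair and signalling (probe H200006659), had 0.76 at 3 h and 0.71 at 6 h. USP25, a relative of USP28 (probe H300020584), had 0.62 on each array. USP16, a histone H2A deubiquitinase, came next at 0.51 and 0.58, just under that size at 6 h. Each of these genes had 1 probe.

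At 3 h, 3 of 48 members were positive by at least 1.5-fold and 1 was negative, against 4.88% and 4.49% of all 10810 named genes. In either direction this was 8.33% of the members and 9.36% of all genes. At 6 h the counts were again 3 and 1 of 48, or 8.33% of the members, against 5.63% positive and 4.24% negative and 9.86% in either direction among 10716 genes. The shares of members past this size were thus near those of all genes, and no member lay 2-fold or more from 0, which 1.61% of all genes did at 3 h and 1.43% at 6 h. USP1, UBE2V2, USP25 and USP2 made up the count on each array. Both arrays set treated cells against untreated cells, and the labels do not say whether these came from the same RNA, so the second array is not independent support for the first.

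**Figure D1:**
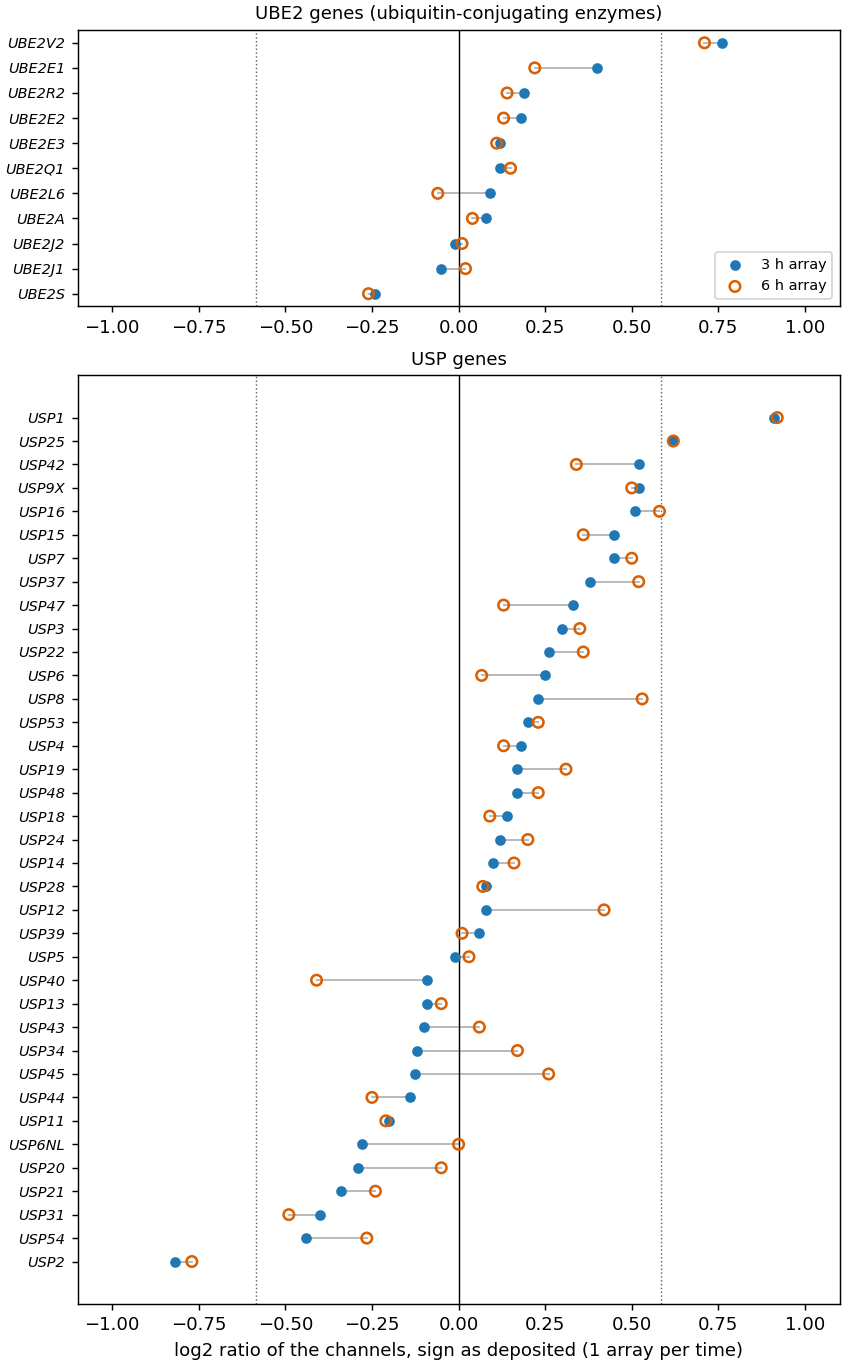
Log2 ratios of the 11 UBE2 and 37 USP genes at 3 h (filled points) and 6 h (open points), sign as deposited, in order of the 3 h value. Dotted lines mark 1.5-fold, and USP1, UBE2V2, USP25 and USP2 lie outside them on both arrays.

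Counted by sign alone, whatever the size, members lay on the positive side more often than all genes. At 3 h, 31 of 48 (64.6%) had a value above 0, against 51.3% of all named genes, and at 6 h 36 of 48 (75%), against 51.5%. The median of the 11 UBE2 genes was 0.12 at 3 h and 0.11 at 6 h. That of the 37 USP genes was 0.12 and 0.16, and both stand beside 0.02 for all genes. These medians describe these arrays, without a test. The SD across genes was 0.34 on each array in the USP genes, and 0.26 and 0.24 in the UBE2 genes, beside 0.36 on each array for all named genes.

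**Figure D2:**
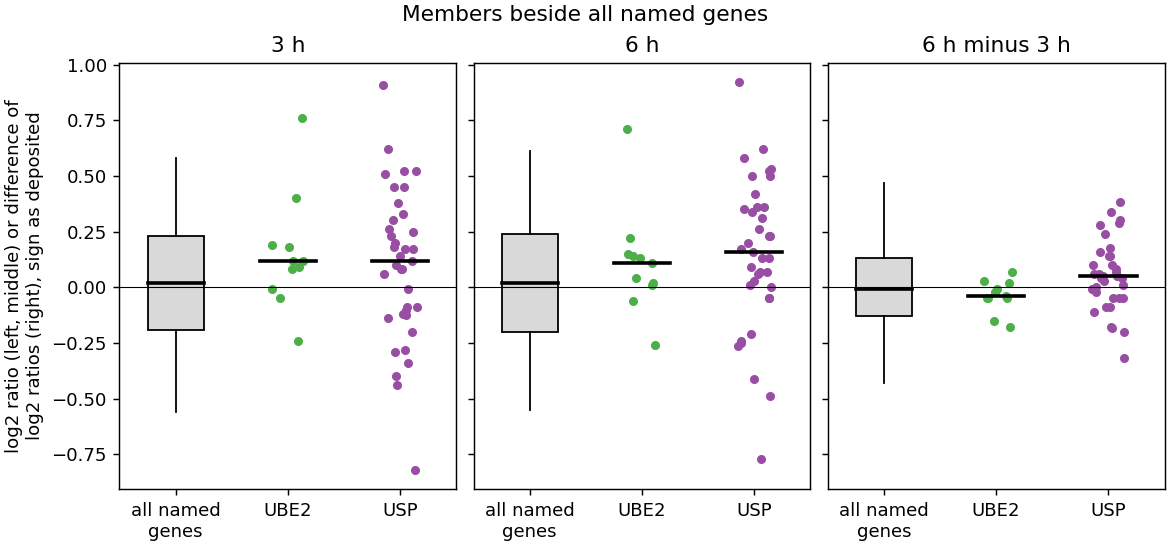
Values of the UBE2 and USP genes beside all named genes, for the 3 h ratio, the 6 h ratio and their difference, in log2 units. The box spans the quartiles of all named genes with lines to the 5th and 95th percentiles, points are genes, and thick bars are medians, which at 3 h lie at 0.02 for all genes and 0.12 for both UBE2 and USP genes.

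The 4 conjugating enzymes that prime substrates or add short chains were all on the positive side, beside 51.3% and 51.5% of all named genes. None reached 1.5-fold, and at 6 h each was below the 0.33 SD between probes of a gene. UBE2E1, an E2 with an extended N-terminus, had 0.40 at 3 h and 0.22 at 6 h. Its relatives were lower, with 0.18 and 0.13 for UBE2E2 and 0.12 and 0.11 for UBE2E3. UBE2A, the E2 that works with RAD18 on PCNA and with RNF20 on histone H2B, had 0.08 and 0.04. The differences between the relatives, at most 0.28, were smaller than the 0.44 to 0.47 that 1 SD of probe differences gives for a pair of genes with 1 probe each.

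Among the E2 genes that build chains, UBE2V2 was the only one past 1.5-fold. UBE2S, which extends chains with the anaphase-promoting complex in mitosis, was the lowest UBE2 gene, with −0.24 at 3 h and −0.26 at 6 h. UBE2R2, a CDC34 relative that serves cullin-RING ligases, had 0.19 and 0.14. UBE2J1 and UBE2J2 are anchored in the endoplasmic reticulum membrane and act in the removal of misfolded proteins. UBE2J1 had −0.05 and 0.02, and UBE2J2 −0.01 and 0.01. The remaining E2 genes were UBE2L6, which carries the ubiquitin-like ISG15, with 0.09 and −0.06, and UBE2Q1, with 0.12 and 0.15. Apart from UBE2V2, the UBE2 genes thus stayed within 0.40 of 0 on both arrays.

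Of 14 USP genes grouped under genome and chromatin, 10 (71.4%) were positive at 3 h and 11 (78.6%) at 6 h, beside 51.3% and 51.5% of all named genes, with medians of 0.145 and 0.245. Besides USP1 and USP16, the highest were USP7, which acts on MDM2 and p53, with 0.45 and 0.50, and USP37, a deubiquitinase of cyclin A, with 0.38 and 0.52. USP3, which acts on histone H2A, had 0.30 and 0.35, and USP22, the protease of the SAGA coactivator, had 0.26 and 0.36. USP48 had 0.17 and 0.23, USP24 0.12 and 0.20, USP28, known for stabilising MYC, 0.08 and 0.07, and the splicing protein USP39 0.06 and 0.01. USP21, another histone H2A protease, had −0.34 and −0.24. USP11 had −0.20 and −0.21, and USP44, of the spindle checkpoint, −0.14 and −0.25. USP45, which acts on the repair nuclease subunit ERCC1, had −0.125 and 0.26.

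The 14 USP genes of signalling and membrane traffic included USP2, had the same counts of positive values and had medians of 0.175 and 0.15. USP9X, a large protease of many substrates, had 0.52 at 3 h and 0.50 at 6 h, and USP15 had 0.45 and 0.36. USP8, which keeps receptor sorting at endosomes running, had 0.23 and 0.53, and USP12 had 0.08 and 0.42. USP47, of base excision repair, had 0.33 and 0.13, USP19, anchored in the endoplasmic reticulum, 0.17 and 0.31, USP53 0.20 and 0.23, and USP4 0.18 and 0.13. USP18, which removes ISG15, had 0.14 and 0.09, and its probes may also bind RNA of its copy USP41P. USP20 had −0.29 and −0.05, USP34, of WNT signalling, −0.12 and 0.17, and USP54 −0.44 and −0.265. USP6, an ape-specific fusion of parts of USP32 and TBC1D3, had 0.25 and 0.07, and its probes may also bind RNA of those genes.

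Proteases that act at the proteasome or on free chains lay near 0 apart from USP25, placed with them here. USP14, which sits on the proteasome, had 0.10 at 3 h and 0.16 at 6 h. USP5, which takes apart unanchored chains, had −0.01 and 0.03, and its relative USP13 had −0.09 and −0.05. Of the remaining USP genes, USP42 had 0.52 and 0.34, USP31 −0.40 and −0.49, USP40 −0.09 and −0.41, and USP43 −0.10 and 0.06. The RAB activator USP6NL had −0.28 and 0. USP31 was the lowest member after USP2 at 6 h.

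Related members were set against each other in 12 pairs, chosen after the values were seen. Of these, 3 differed by more than 1 SD of probe differences on both arrays and 0 by more than 2 SD on either. USP25 exceeded USP28 by 0.54 at 3 h and 0.55 at 6 h. USP15 exceeded USP11, a paralog of the same subgroup, by 0.65 and 0.57. USP53 exceeded USP54 by 0.64 and 0.495. These sizes correspond to 1.23, 1.49 and 1.46 SD at 3 h, and the SD used assumes 1 probe per gene, although USP54 had more. Gaps of this size also arise between probes of the same gene, so the pairs do not show that relatives differ.

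Members with several probes show how far a single probe can be trusted. Both probes of USP18 agreed closely, with 0.17 and 0.11 at 3 h and 0.09 each at 6 h. For USP45, 1 probe had −0.10 and −0.09 and the other −0.15 at 3 h and 0.61 at 6 h. For USP43, 1 probe had −0.10 and 0.48, and the other had no value at 3 h and −0.36 at 6 h. USP54 had probes at −0.67, −0.50 and −0.15 at 3 h, of which the probe at −0.50 had −0.11 at 6 h and the probe at −0.15 had −0.42. USP6 had 0.34 and 0.16 at 3 h, and at 6 h 0.30, 0.05 and −0.15. The widest gap between probes on an array was 0.84 for USP43, 0.70 for USP45, 0.52 for USP54 and 0.45 for USP6, and the gene values of USP43, USP54 and USP6 rest on other numbers of probes at 3 h and 6 h.

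**Figure D3:**
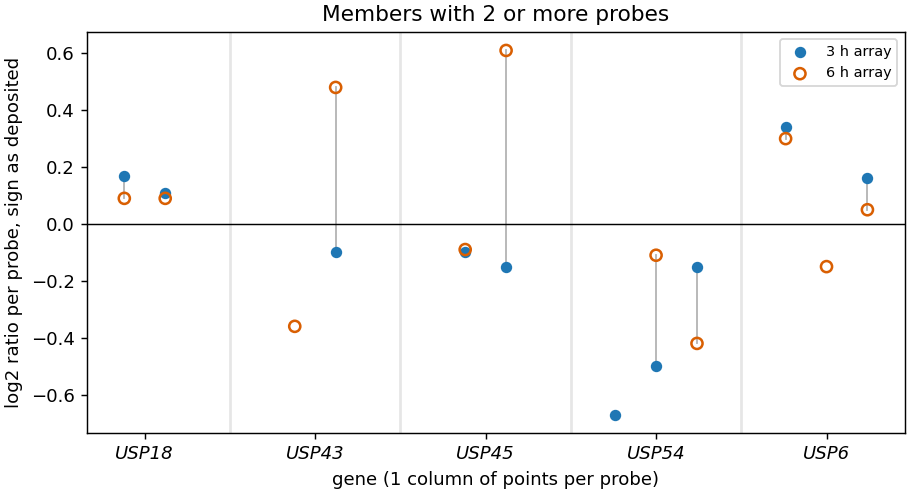
Log2 ratio of each probe of the 5 members with 2 or more probes, at 3 h (filled) and 6 h (open), sign as deposited, with a line joining both values of a probe. The probes of USP18 lie within 0.06 of each other at 3 h, while those of USP45 at 6 h lie at −0.09 and 0.61.

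The ratios differed little between 3 h and 6 h. No member had a difference, 6 h minus 3 h, of 1.5-fold or more, against 5.75% of 10469 named genes with both values. The highest differences were 0.385 for USP45, 0.34 for USP12, 0.30 for USP8 and 0.29 for USP34. The lowest were −0.32 for USP40, −0.20 for USP47, and −0.18 each for USP6, UBE2E1 and USP42. Probes of 1 gene differ in this quantity with an SD of 0.30, so these differences are of about that size or smaller. The value of USP45 rests on 1 of its 2 probes, which had a difference of 0.76 where the other had 0.01. For USP43, USP54 and USP6 the gene values compare unequal sets of probes. The only USP43 probe with both values had a difference of 0.58, where the gene value was 0.16. The USP6 probes with both values had −0.04 and −0.11, so its place among the lowest rests on a probe with a value at 6 h only. Those of USP54 had 0.39 and −0.27.

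Among the UBE2 genes, 3 of 11 had a higher ratio at 6 h and 8 a lower one, with a median difference of −0.04. Among the USP genes, 23 of 37 were higher and 13 lower, with a median of 0.05. Of all named genes 46.9% were higher at 6 h, and 51.2% lower, with a median of −0.01. Time and array are confounded here and cannot be told apart.

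The promoters of the members were rich in G and C. RefSeq promoter windows matched 37 of 48 members, and their 250 bases had a median GC content of 72.4%, against 63.6% for 8872 named genes with a value and a window. The lowest were USP54 at 42.8% and USP7 at 47.2%, and the highest USP12 at 84.8%. The CCAAT box was found in 11 of 37 windows (29.7%), on either strand, against 32% of all 35116 windows and 34.9% of those of named genes with a value. The NRF1 motif, also on either strand, was found in 5 (13.5%, against 5.07% and 8.42% in the same order): UBE2J2, UBE2R2, USP14, USP21 and USP45. The ETS letters CCGGAAGT were in the windows of USP11, USP16 and USP19 (8.11%, against 3.42% and 5.52%). The CREB letters TGACGTCA were in that of UBE2S (2.7%, against 1.65% and 2.74%), and the E2F letters TTTCGCGC in 0 of 37, against 0.439% and 0.721%. E2F and NRF1 matches can share letters. These are matches of letters and not sites, and members with the same match had ratios of either sign, such as −0.20 for USP11 and 0.51 for USP16 at 3 h.

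Other genes of the pathway were taken from 8 lists of 153 genes, 89 of which had a value. Their median was 0.15 at 3 h and 0.16 at 6 h, with 61 and 70 of 89 above 0 (68.5% and 78.7%, beside 51.3% and 51.5% of all named genes). Past 1.5-fold were 7 positive and 1 negative gene at 3 h and 9 positive and 0 negative at 6 h, or 8.99% and 10.1% of the genes, beside 9.36% and 9.86% of all genes. The lists differed among themselves, with medians from −0.09 for RBR ligases to 0.28 for the cullin-RING core at 3 h, and from 0.06 to 0.36 at 6 h.

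The genes upstream of the E2 step were measured for 6 of 14 ubiquitin and E1 genes, with medians of 0.235 at 3 h and 0.125 at 6 h. UBA7, the E1 of ISG15, had 1.01 and 0.40, and UBA1, the main E1 of ubiquitin, −0.04 and 0.09. MOCS3 had 0.34 and 0.23, and NAE1, of the NEDD8 E1, 0.04 and −0.04. All 6 measured E2-fold genes outside the UBE2 stem were positive on both arrays, beside 4233 of 10469 named genes with both values. They ran from CDC34 at 0.04 on each to ATG10, an autophagy E2, at 0.51 on each. TSG101, an inactive E2 variant of endosomal sorting, had 0.42 and 0.41, and BIRC6 0.24 and 0.21.

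Ubiquitin-like modifiers had medians of 0.23 and 0.145 over 10 of 19 genes. UBL3 had 0.54 and 0.48, ISG15 itself 0.29 and 0.65, MAP1LC3A −0.32 and −0.02, and URM1 0.05 and −0.14. The SUMO ligases and proteases, of which 12 of 16 were measured, had medians of 0.09 and 0.225. The SUMO chain proteases SENP6 and SENP7 led them, SENP6 with 0.90 and 1.24 and SENP7 with 0.69 and 1.14. The ligase PIAS2 had −0.23 and −0.33, and PIAS3 −0.27 and 0.07.

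Downstream, the cullin-RING core had medians of 0.28 and 0.275 over 14 of 20 genes. ELOC, an adaptor of cullin complexes, had 0.79 and 0.89, and the substrate receptor gene FBXW7 0.66 and 0.52, while DDB1 had −0.12 and −0.07 and ELOB 0 and −0.04. The HECT ligases had medians of 0.19 and 0.135 over 20 of 27 genes. Highest by the mean of both arrays were HACE1 at 0.92 and 1.04 and AREL1 at 1.08 and 0.66. Lowest by that mean were WWP2 at −0.45 and −0.35 and UBE3C at −0.24 and −0.44. HECW2 had the lowest single value, −0.75 at 3 h, and had 0.42 at 6 h. The RBR ligases had −0.09 and 0.06 over 10 of 13. By the mean of both arrays the highest were ARIH2 at 0.30 and 0.07 and RNF14 at 0.14 and 0.19, and the lowest RNF217 at −0.39 and −0.23 and RNF144B at −0.27 and −0.29. Deubiquitinases of other families had 0.05 and 0.08 over 11 of 36. Highest among these by the mean of both arrays were MINDY3 at 0.31 and 0.25 and UCHL3 at 0.26 and 0.15. The lowest by that mean were ZRANB1 at −0.08 and −0.12 and TNFAIP3, the NF-kB inhibitor, at −0.23 and 0.08. ZUP1 had the lowest value of this list at 3 h, −0.47, and the highest at 6 h, 0.32.

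**Figure D4:**
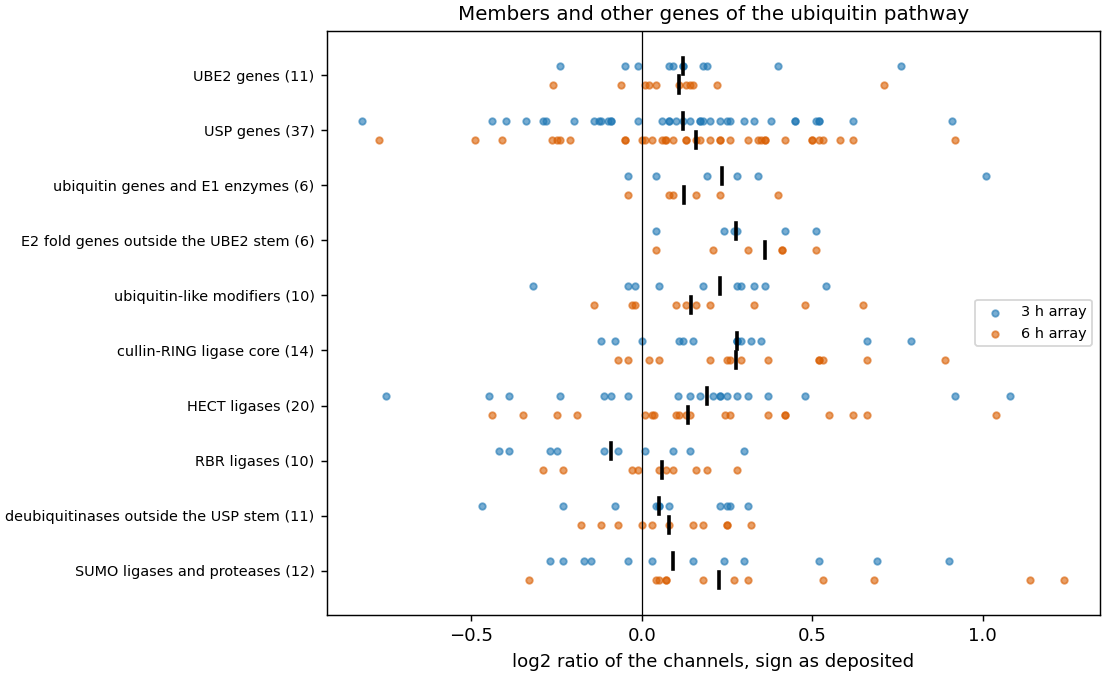
Log2 ratios of UBE2 and USP genes and of 8 lists of other ubiquitin pathway genes at 3 h (upper row of each list) and 6 h (lower row), sign as deposited. Points are genes with a value, their number is in brackets, and bars are medians, from −0.09 for RBR ligases at 3 h to 0.36 for E2-fold genes at 6 h.

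Markers of cell types were read as ratios, since a ratio gives no level and cannot show that a marker is absent. The median of kidney epithelial markers was −0.265 at 3 h and 0.01 at 6 h over 10 of 11 genes, blood cell markers −0.08 and −0.18 over 5 of 12, and endothelial markers −0.20 and −0.38 over 7 of 8. EPCAM had 0.63 and 0.06, KRT18 0.19 on each array, LHX1 −0.51 and −0.45, and KRT19 −0.73 and −1. Among blood markers CD3D had 0.02 and 0.03, CD3E 0.03 and −0.12, CD14 −0.17 and −0.42 and CD8A −0.08 and −0.69. Among endothelial markers ENG had 0 and −0.06, VWF −0.125 and −0.215, KDR −0.46 and −0.42 and CDH5 −0.72 and −0.55. Their part in the values of the members was not tested.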

How the data were processed

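Total RNA of 293T cells was amplified and labelled through an amino allyl procedure and hybridised to dual-colour arrays, per the labels' protocols. The treatment was taken from the labels of the Cy3 channel, since the array titles name only control and a time. The deposited table holds 1 log value per probe and array, read here as a log2 ratio, for 24267 probes, of which 20503 had a value at 3 h and 20337 at 6 h. For background correction, normalization, spot filter, log base and numerator, nothing is given in the sources used here. Base 2 was assumed because base 10 would make 1 SD of named genes a 2.27-fold difference at 3 h. The platform annotation gave 1 symbol for 13395 probes and none for 10872. Symbols were current in RefSeq (GRCh38.p14) for 10822 probes, updated through a unique synonym for 2446 and kept as listed for 127. A gene is the mean of its probes, computed with Python 3.11.15 and pandas 2.3.3, and calculations were tested on simulated data. All 48 members are named with both values, and in each list the 2 highest and 2 lowest genes by mean. With 1 array per group no test was run. Alternatives changed the probe rule, centring, scale, symbols, probe filter, log base and size threshold. The members and lists were chosen with earlier results of these data known, and 1 gene of the UBE2 stem is not reported here.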

Additional observations from a re-analysis of the deposited data

Results flagged for a closer look

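The sign of the ratio differed between 3 h and 6 h for 7 of 48 members, beside 2174 of 10469 named genes with both values. Such a change of sign was thus no more common among members than among all genes. The difference, 6 h minus 3 h, was 0.385 for USP45, 0.29 for USP34, 0.16 for USP43, 0.07 for UBE2J1, 0.04 for USP5, 0.02 for UBE2J2 and −0.15 for UBE2L6. No test of these differences was possible with 1 array per time, so the difference was not tested. As gene values, all but that of USP45 were smaller than the 0.30 SD between probes of a gene. For USP45 and USP43 a single probe carries the positive value at 6 h. The gene value of USP43 takes in a probe with a value at 6 h only, and its probe with both values had a difference of 0.58.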

How the results depend on the processing

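No paired analysis was possible because each time has 1 array. The medians of the UBE2 and USP genes and the counts of members past 1.5-fold changed little when genes were centred on their median, when the 6 h array was scaled to the SD of the 3 h array, with symbols as listed, or with probes measured on both arrays. Read as natural logarithms, the USP medians became 0.17 at 3 h and 0.23 at 6 h, and the counts past 1.5-fold 8 positive and 2 negative at 3 h and 9 and 3 at 6 h. Those were 20.8% and 25% of the members, beside 20.8% and 22.4% of all genes. At 2-fold all counts were 0. With each gene given by its probe farthest from 0, the members negative by 1.5-fold at 3 h became 2, those positive at 6 h became 4, and 1 member differed by 1.5-fold between the times. In either direction 10.4% of members were then past that size on each array, beside 10.2% and 10.8% of all genes, and the USP median at 6 h was 0.20. USP45 then had 0.61 and USP43 0.48 at 6 h. Turning the sign of the ratio exchanges positive and negative throughout. No spot brightness was used, so the precision of single probes could not be set.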

Other observations

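Genes that work with the members were looked up after the members' values were seen, chosen by known function: 27 genes, of which 22 had a value, with a median of 0.18 on each array, beside 0.02 for all named genes. Both numbers after a gene are its values at 3 h and 6 h. For USP1, its activator WDR48 had 0 at 3 h and 0.19 at 6 h, and of its substrates FANCD2 had 0.37 and 0.14 and PCNA 0.42 and 0.46. RAD18, the ligase that modifies PCNA, had 0.03 and 0.06. WDR20, looked up with the genes of USP1 although it works with USP12, had −0.07 and −0.06. Around UBE2V2, the ligase gene SHPRH had 0.82 and 0.78, HLTF 0.43 and 0.41 and RNF168 0.58 and 0.49, whereas RNF8 had 0.11 and −0.46 and TRAF6 0.25 and −0.03. UBE2N, with which UBE2V2 works, had no value on either array. Of the genes whose proteins bind USP8 at endosomes, STAM had 0.51 and 0.71, STAM2 0.23 and 0.49 and HGS 0.19 and 0.09. For USP2, CCND1 had −0.34 and −0.37, MDM2 0.19 and 0.18, MDM4 0.24 and 0.23 and FASN 0.16 and 0.37. For USP7, DNMT1 had 0.17 and 0.40 and UHRF1 −0.13 and 0.05. Of the SAGA partners of USP22, ATXN7L3 had −0.36 on each array, KAT2A −0.04 and −0.15, and ATXN7 0.17 at 3 h and no value at 6 h. Past 1.5-fold were 1 of 22 genes at 3 h (4.55%) and 2 of 21 at 6 h (9.52%), beside 9.36% and 9.86% of all named genes.

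PAN2, which the platform annotation lists under its old symbol USP52, is a deadenylase subunit and no member, and had 0.18 and 0.24.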
